A study of Mus musculus with 23 samples.

Results

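The cardiac T-box transcription factors were followed as a set of 6 genes (Tbx1, Tbx2, Tbx3, Tbx5, Tbx18 and Tbx20), taken by symbol from the 23512 features of the count table. RNA had been sequenced from mouse hearts at embryonic day 13.5 in 3 groups by genotype, all under the strain label C57BL/6. The 8 wild-type libraries carried no Cre and unmodified G-protein receptor kinase genes GRK2, GRK5 and GRK6. The 8 haploinsufficient libraries carried 1 floxed and 1 wild-type GRK2 allele, floxed GRK5 on both alleles, knocked-out GRK6 on both alleles and Nkx2.5Cre, which expresses the Cre recombinase in cells of the Nkx2-5 lineage, mainly heart muscle and its progenitors. The 7 triple-knockout libraries had the same genotype with floxed GRK2 on both alleles, so both mutant groups share the loss of GRK5 and GRK6 and the Cre driver. Cells of the heart outside the Nkx2.5 lineage would keep floxed alleles intact, and the GRK6 allele is the one labelled as a knockout throughout. Whether every library came from its own embryo is not in the labels, and p-values then reflect only how far these libraries differ, part of which may be technical.

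T-box factors share a DNA-binding domain, the T-box, which recognises a short element, and they differ in whether they activate or repress what they bind. Tbx5 and Tbx20 drive chamber muscle genes together with Nkx2-5 and Gata4. Tbx2 and Tbx3 repress those genes in the atrioventricular canal and, for Tbx3, the conduction system, where the myocardium stays undifferentiated and signals to the endocardial cushions. Tbx18 marks the epicardium and the sinus horns, and Tbx1 acts in pharyngeal mesoderm and the progenitors of the outflow tract. Between them these genes mark the atrioventricular canal as well as its neighbours. Tbx2, Tbx3, Tbx4 and Tbx5 are also expressed in the mesenchyme of the embryonic lung.

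Because the members are paralogs read in 50-base fragments, their RNA sequences (GENCODE M21, GRCm38, which is mm10) were compared first. Over the 15 pairs of members, the longest run of bases that their coding transcripts share was between 13 and 21 bases, with a median of 17. In 10 pairs the run lay in coding exons of both genes. A pair of runs of 20 or more bases, in coding exons of both genes, is shown 5′ to 3′ to illustrate how far the members are from sharing a read.
Tbx1 and Tbx5: caaccccttcgccaaaggctt
Tbx2 and Tbx5: atcctgaactccatgcacaa
The run of Tbx1 (exon 5, minus strand, chr16:18582931-18582951) matches Tbx5 in exon 7 (plus strand, chr5:119853552-119853572), and that of Tbx2 (exon 3, plus strand, chr11:85835798-85835817) matches Tbx5 in exon 6 (plus strand, chr5:119844968-119844987). No stretch of 50 bases was shared between any members. With other genes, Tbx1 and Tbx2 shared none, Tbx20 shared 0.0834% of its stretches, Tbx5 0.368%, Tbx3 1.01% (all with its antisense gene Tbx3os1) and Tbx18 18.3%, of which 836 of 852 were shared with D030062O11Rik. The libraries did not keep the strand, so reads from Tbx18 and from an RNA copied from the opposite strand there could not be told apart. In the authors' deposited annotation no exon of another gene overlapped an exon of a member.

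In that annotation (mm10), Tbx5 spans chromosome 5, 119834663 to 119885218, and Tbx3 lies on the same strand of the same chromosome at 119670669 to 119684601. Tbx2 lies on chromosome 11 at 85832615 to 85841948, and its neighbour Tbx4, a T-box gene of limb and lung, lies at 85890063 to 85916097. Both members on chromosome 9 are on the minus strand, Tbx20 at 24720812 to 24774303 and Tbx18 at 87702800 to 87731260. Tbx1 lies on chromosome 16 at 18581713 to 18586969.

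Depth and the identity of the tissue bear on every value below. The total count ran from 3838166 to 14050559 per wild-type library, from 1757257 to 11025358 per haploinsufficient library and from 6657734 to 13864731 per triple-knockout library. A gene with 0 counts could be present at up to 0.199 CPM (the count per 1e+06 of the TMM-scaled library) where sequencing was deepest and at up to 1.75 CPM where it was shallowest, from an upper limit of 3 counts that covers counting error only. All 8 heart muscle markers were present in every group. In the triple knockout the summed exons of the targeted genes fell, by 0.65 on the log2 scale for GRK2 (listed as Adrbk1), 0.76 for Grk5 and 1.04 for Grk6 (edgeR adjusted p = 0.0120, 0.00215 and 0.000150). Grk5 fell by 0.85 and Grk6 by 0.94 in the haploinsufficient group (edgeR adjusted p = 0.000618 and 0.000542), and Adrbk1, at -0.33, did not pass the test there (edgeR adjusted p = 0.206). In bulk hearts, fewer cells of a type and less RNA per cell cannot be told apart.

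Levels of different genes were compared per length, on the authors' deposited FPKM (fragments per kilobase of transcript, scaled to depth). In wild-type hearts Tbx20 stood far above the rest at 198 ± 20.02 FPKM (SD, n = 8), ranking 613 of 23405 gene names. Tbx18 followed at 14.1 ± 3.10 FPKM, Tbx5 at 12.5 ± 2.15, Tbx2 at 5.40 ± 2.41, Tbx3 at 4.23 ± 0.606 and Tbx1 at 0.233 ± 0.361 (SD, n = 8 each). Tbx20 therefore made up 84.4% ± 2.78 (SD, n = 8) of the FPKM summed over the 6 genes.
Neighbours in this order were compared within libraries. Tbx20 was 14.3-fold above Tbx18, Tbx5 2.44-fold above Tbx2, and Tbx3 18.4-fold above Tbx1, each in 8 of 8 libraries (two-sided exact sign-flip permutation test on log2(FPKM + 0.1), adjusted p = 0.0130 for each over 5 pairs; the unadjusted 0.00781 is the smallest the test can give). Tbx18 and Tbx5 did not differ beyond their spread (1.11-fold, higher in 6 of 8 libraries, exact permutation adjusted p = 0.305), nor did Tbx2 and Tbx3 (1.19-fold, 6 of 8, exact permutation adjusted p = 0.293). In the mutant groups the step from Tbx5 down to Tbx2 was less regular: Tbx5 was above Tbx2 in 5 of 8 haploinsufficient and 5 of 7 triple-knockout libraries. That difference between groups was not tested.

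**Figure D1:**
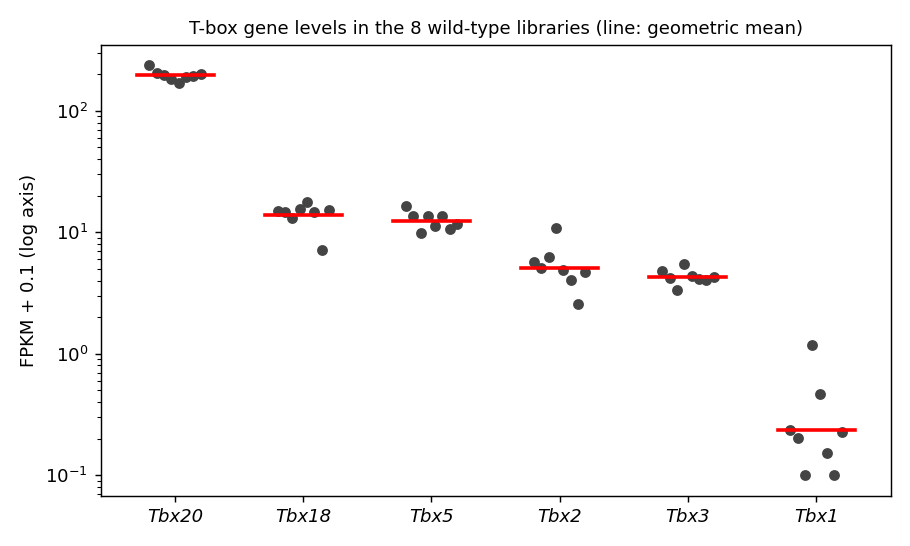
Deposited FPKM plus 0.1 on a log axis for the 6 T-box genes in the 8 wild-type libraries; each point is a library and each red line a geometric mean. Tbx20 lies above the other genes in all 8 libraries, while the points of Tbx18 and Tbx5 and those of Tbx2 and Tbx3 overlap.

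The question of the genotype comparison was whether these genes differed between the groups. Both mutant groups carried Nkx2.5Cre and wild-type libraries did not. Against wild type, loss of the kinases and the Cre driver therefore cannot be told apart. No member passed the test in any of the 3 comparisons. Tbx1 was below the expression filter, which kept 13941 features, and 5 of the 6 members were tested. In the triple knockout against wild type 0 of 5 were called, against 166 of 13941 genes (1.19%). In the haploinsufficient group against wild type 0 of 5 were called, against 312 genes (2.24%). With the triple knockout set against haploinsufficient hearts 0 of 5 were called, against 55 genes (0.395%, of which 0.0789% were higher and 0.316% lower). These are edgeR quasi-likelihood tests with Benjamini-Hochberg adjustment over all genes, and a gene is called at an adjusted p under 0.05. At an unadjusted p under 0.05 the count of members was 0, 1 and 0, against 10.8%, 17.2% and 15.3% of all genes, the 1 being Tbx2 in the haploinsufficient group. DESeq2 and limma on log2 FPKM also called 0 members in each comparison. The 2 comparisons with wild type share their 8 control libraries.

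Tbx5, the activator mutated in Holt-Oram syndrome, varied little between groups. It stood between 40.6 and 64.4 CPM in wild-type libraries (median 50.7), between 37.4 and 72.9 in haploinsufficient libraries (median 50.7) and between 47.1 and 73.2 in triple-knockout libraries (median 54.6). The ranges of Tbx5 overlapped, with 1 triple-knockout library and 2 haploinsufficient libraries above all wild-type libraries and 1 haploinsufficient library below them. Its log2 fold change was 0.17 ± 0.12 (SE) in the triple knockout, with a 95% interval of -0.08 to 0.42 (edgeR adjusted p = 0.686). In the haploinsufficient group it was 0.11, with an interval of -0.14 to 0.35 (edgeR adjusted p = 0.691).

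Tbx20, a factor needed for chamber growth and for keeping Tbx2 out of the chambers, had the tightest wild-type values of the set, with a coefficient of variation of 8.66% in CPM. It ran from 478 to 621 CPM in wild-type libraries (median 563), from 282 to 728 in haploinsufficient libraries (median 537) and from 397 to 731 in triple-knockout libraries (median 569). Mutant libraries thus lay on both sides of the wild-type range: 3 haploinsufficient and 2 triple-knockout libraries below it, and 2 of each group above it. The mean moved little, at a log2 fold change of 0.05 (interval -0.26 to 0.35, edgeR adjusted p = 0.947) in the triple knockout and -0.10 (interval -0.39 to 0.20, edgeR adjusted p = 0.775) in the haploinsufficient group. The sign of the triple-knockout value turned to -0.05 in limma on log2(FPKM + 0.1).

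Tbx18, the epicardial and sinus horn factor, ran from 35.6 to 88.3 CPM in wild-type, from 52.5 to 80.2 in haploinsufficient and from 53.8 to 82.4 in triple-knockout libraries, with medians of 70.7, 64.1 and 66.1. Both mutant ranges lay inside the wild-type range. Tbx18 had log2 fold changes of -0.03 (interval -0.30 to 0.24) in the triple knockout and -0.05 (interval -0.31 to 0.22) in the haploinsufficient group (edgeR adjusted p = 0.969 and 0.890). The lowest wild-type library, replicate 7 at 35.6 CPM, stood apart from the next at 65.7, and the sign of these small values turned under several alternatives.

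Tbx2, the repressor of the atrioventricular canal, had the widest spread between libraries among the 5 members that passed the filter. The 8 wild-type libraries lay between 9.21 and 38.0 CPM (median 17.8). Haploinsufficient libraries lay between 11.02 and 152 CPM (median 19.97), and triple-knockout libraries between 12.02 and 72.6 (median 24.9). The upper end of both mutant groups passed the wild-type range, in 3 of 8 haploinsufficient and 2 of 7 triple-knockout libraries, while their lower ends stayed inside it. The log2 fold change of Tbx2 was 1.40 ± 0.50 (SE) in the haploinsufficient group (interval 0.39 to 2.42, unadjusted p = 0.00850, edgeR adjusted p = 0.138). In the triple knockout it was 0.72 ± 0.49 (interval -0.30 to 1.73, edgeR adjusted p = 0.670), and between the mutant groups -0.69 ± 0.49 (interval -1.69 to 0.31, edgeR adjusted p = 0.513). The haploinsufficient value of Tbx2 was 0.43 in the first ID set alone and 2.19 in the second (edgeR adjusted p = 0.838 and 0.127), and 0.89 without haploinsufficient replicate 7. Without that library the value between the mutant groups was -0.15, and without triple-knockout replicate 7 it was -1.12. The triple-knockout value was 0.35 without triple-knockout replicate 7 and 0.45 without triple-knockout replicate 1. The biological coefficient of variation (the spread between libraries of a group beyond counting noise) was 63.9% for Tbx2, where the trend for genes of its level was 17.2%. The ratio of the 2 was larger than for 99.9% of the genes tested.

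Tbx3, the repressor of the canal and conduction system, showed the same shape at a smaller scale. It ran from 17.6 to 27.5 CPM in wild-type libraries (median 22.03), from 18.1 to 60.9 in haploinsufficient libraries (median 23.2) and from 13.9 to 43.2 in triple-knockout libraries (median 24.4). In each mutant group 3 libraries passed the wild-type range, and 1 triple-knockout library lay below it. Its log2 fold change was 0.48 (interval -0.01 to 0.98, edgeR adjusted p = 0.304) in the haploinsufficient group and 0.31 (interval -0.19 to 0.81, edgeR adjusted p = 0.726) in the triple knockout. The coefficient of variation of Tbx3 was 32.5% against a trend of 18.0%. Those of Tbx5 (16.2% against 16.2%), Tbx18 (17.7% against 15.8%) and Tbx20 (20.3% against 17.5%) were near theirs.

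Tbx1, the pharyngeal factor, was close to the limit of detection. The 8 wild-type libraries held 19 counts in all, the 8 haploinsufficient libraries 112 and the 7 triple-knockout libraries 116. A single library, haploinsufficient replicate 7, gave 84 of the 112, and triple-knockout replicate 1 gave 63 of the 116. In CPM, Tbx1 ran from 0 to 1.80 in wild-type, from 0 to 7.55 in haploinsufficient and from 0 to 4.17 in triple-knockout libraries. On log2(CPM + 1) the triple knockout differed from wild type by 0.70 and the haploinsufficient group by 0.74 (2-sided exact permutation test, adjusted p = 0.120 for both over 3 comparisons), a test added after the values had been seen. With the smaller pseudocount, on log2(CPM + 0.1), the differences of Tbx1 were 1.59 and 1.63 (exact permutation adjusted p = 0.131 for both). In edgeR without the filter its log2 fold changes were 2.13 (interval 0.54 to 3.72) and 2.49 (interval 0.88 to 4.09), which did not pass (edgeR adjusted p = 0.281 and 0.110).

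**Figure D2:**
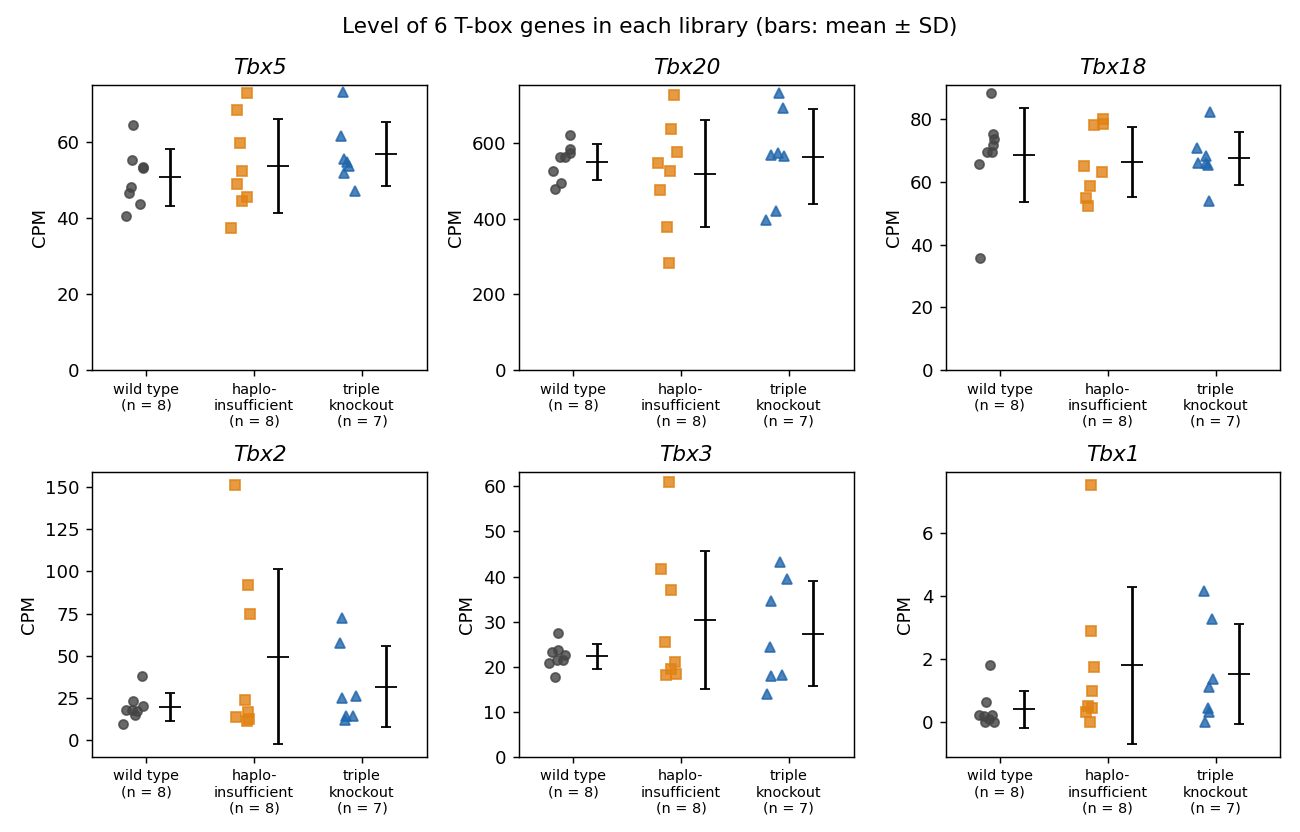
CPM of each T-box gene in every library, by genotype group; points are libraries and the black bars show the mean ± SD. The 3 groups overlap for every gene, and Tbx2, Tbx3 and Tbx1 have a few high libraries in both mutant groups.

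The libraries high in Tbx2, Tbx3 and Tbx1 were also high in markers of other tissues. A score of 14 markers of lung, foregut, liver and thymus (their average log2 CPM, centred on wild type) came to 0.00 ± 1.03 (SD, n = 8) for wild-type libraries, 1.69 ± 1.67 (n = 8) in haploinsufficient and 1.40 ± 1.55 (n = 7) in triple-knockout libraries. The summed level of the 14 markers ran from 6.96 to 56.7 CPM in wild-type libraries, from 17.9 to 287 in haploinsufficient libraries and from 12.1 to 170 in triple-knockout libraries. No marker was at 0 in all libraries of a group. Of the 10 that passed the filter, 3 rose in the haploinsufficient group, Foxf1, Fendrr and Cldn6 (edgeR adjusted p = 0.0340, 0.0284 and 0.0424), where 0.861% of all genes were called higher. Foxf1 and Fendrr are genes of lung and gut mesenchyme, and Cldn6 is an epithelial gene. Whether the RNA of these 3 genes came from other tissue or from cells of the heart was not tested. In the triple knockout 0 of 10 passed the test, with 6 of 10 at an unadjusted p under 0.05 against 10.8% of all genes. By sign, 8 of the 10 were higher there and 2 lower, the liver genes Afp (-0.98) and Apoa1 (-0.30), and Nkx2-1 was at 0.24. In the haploinsufficient group 9 were higher and 1 lower, Afp at -0.06. Of the 9 libraries with a score above 1.5, 1 was wild type, 4 were haploinsufficient and 4 were triple knockout.

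Tbx2 followed this score closely in each group. The 14 libraries with a score up to 1.5 held between 9.21 and 23.02 CPM of Tbx2, and the 9 with a higher score between 23.6 and 152. How many other genes part at this cut was not counted. Over the 23 libraries, with group means removed from both measures, Pearson's r of log2 CPM with the score was 0.94 for Tbx2 and Spearman's rho 0.93 (permutation p = 1e-05 for both, the smallest that the permutations can give, adjusted over the 6 members to 3e-05 and 6e-05). Without the 2 libraries farthest from the median score r was 0.93. Within the wild-type libraries alone r was 0.86 (rho 0.86), within the haploinsufficient libraries 0.98 (rho 0.95) and within the triple knockouts 0.95 (rho 0.93), with exact permutation p of 0.00702, 9.92e-05 and 0.00119 for r. Adjusted over the 6 members, these were 0.0421, 0.000595 and 0.00714. The rho within wild type did not pass (exact permutation adjusted p = 0.0643). The library IDs fall into the sets 1 to 12 and 19 to 30, and r was 0.91 (rho 0.64) in the first and 0.98 (rho 0.94) in the second. The rho in the first set did not pass (permutation adjusted p = 0.0798).

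Tbx3 and Tbx1 went with the score too, and Tbx20 against it. For Tbx3 r was 0.82 and rho 0.77 (permutation adjusted p = 3e-05 and 0.00012), and for Tbx1 r was 0.79 and rho 0.77 (permutation adjusted p = 4e-05 and 0.00012). For Tbx20 r was -0.69 and rho -0.66 (permutation adjusted p = 0.000255 and 0.00153). Without the 2 farthest libraries these values of r were 0.77, 0.78 and -0.63. The relation of Tbx3 was not seen within the wild-type libraries alone (r = 0.38, rho = 0.10, exact permutation p = 0.335 for r), nor was that of Tbx20 (r = -0.22, rho = -0.10, exact permutation p = 0.604 for r), where only 1 library had a score above 1.5. Tbx1 did not pass within wild type either (r = 0.62, rho = 0.25, exact permutation p = 0.0977 for r). Tbx20 had r = -0.66 within the triple knockouts, which did not pass, and -0.82 within the haploinsufficient libraries (exact permutation p = 0.129 and 0.00508). Within the ID sets r was 0.87 and 0.93 for Tbx3 and -0.79 and -0.91 for Tbx20. For Tbx1 it was 0.89 in the second set and 0.52 in the first, where it did not pass (permutation adjusted p = 0.144). Tbx5 (r = 0.33, rho = 0.39, permutation adjusted p = 0.146 and 0.0834) and Tbx18 (r = -0.13, rho = -0.27, permutation adjusted p = 0.575 and 0.214) did not pass. Tbx5 had r = 0.74 within the second ID set (permutation adjusted p = 0.00758) and -0.24 within the first.

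**Figure D3:**
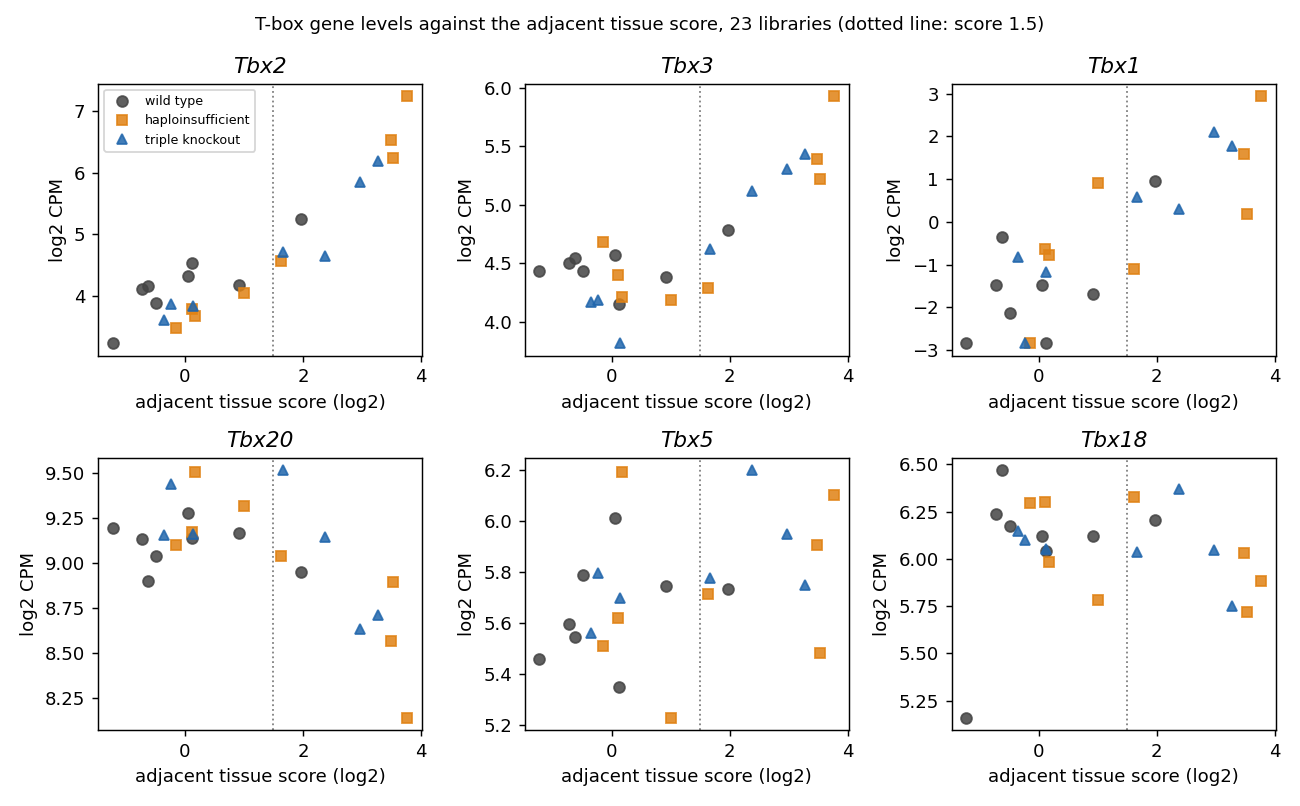
Log2 CPM of each T-box gene against the adjacent tissue score in the 23 libraries, by group; the dotted line marks a score of 1.5. In both mutant groups Tbx2, Tbx3 and Tbx1 tend to lie higher to the right of that line and Tbx20 lower. Only 1 wild-type library lies there. Tbx5 and Tbx18 show no clear slope.

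With the score as a term in the edgeR fit, its coefficient for Tbx2 was 0.79 ± 0.04 (SE) log2 units per unit of score (edgeR adjusted p = 3.87e-13) and for Tbx3 0.35 ± 0.04 (edgeR adjusted p = 2.07e-07). It was -0.20 ± 0.03 for Tbx20 (edgeR adjusted p = 1.55e-05), while Tbx5 (0.05, edgeR adjusted p = 0.427) and Tbx18 (-0.04, edgeR adjusted p = 0.615) did not pass. So 3 of the 5 members tested were called, against 13.4% of all genes (6.91% higher and 6.54% lower).
In that fit the genotype values of Tbx2 and Tbx3 against wild type changed direction. Tbx2 was lower in the triple knockout at a log2 fold change of -0.69 (edgeR adjusted p = 0.0183), the only call of a member in any alternative, and stood at -0.59 in the haploinsufficient group (edgeR adjusted p = 0.0818). When the 9 libraries with a score above 1.5 were left out instead, Tbx2 stood at -0.17 and -0.37 (edgeR adjusted p = 0.899 and 0.389), so the call did not hold there. Tbx3 went to -0.31 and -0.26 with the term and to -0.44 and -0.03 without the 9 libraries, none called. Tbx20 went to 0.33 and 0.21 with the term (edgeR adjusted p = 0.107 and 0.326). For Tbx1 the differences from wild type without the 9 libraries were 0.06 in the triple knockout and 0.41 in the haploinsufficient group on log2(CPM + 1). How much of the spread of Tbx2, Tbx3 and Tbx1 was RNA of adjacent tissue was not tested.

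**Figure D4:**
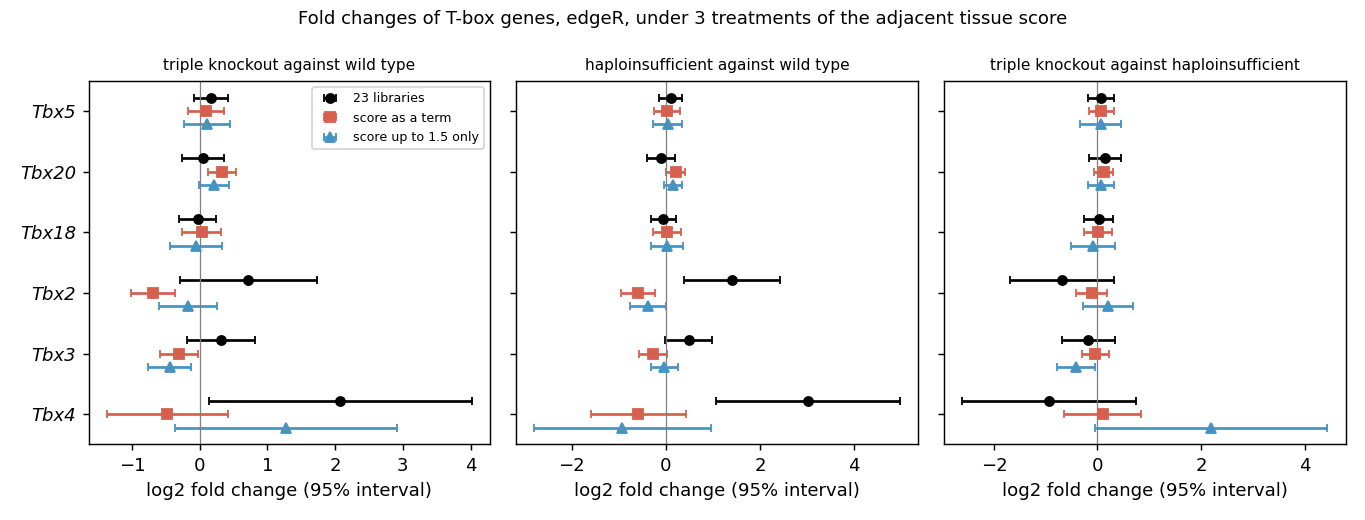
Log2 fold changes with 95% intervals from edgeR for the members tested and Tbx4, in the 3 comparisons; black points use 23 libraries, red squares add the adjacent tissue score as a term and blue triangles keep the 14 libraries with a score up to 1.5. Tbx2 stands right of 0 against wild type in the black points (0.72 and 1.40) and left of it in the red and blue ones, while Tbx5 and Tbx18 hardly move.

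After group and ID set means were removed, the members fell into a set that moved together and a pair that did not. As a description over the 23 libraries, which share their depth and tissue makeup, r was 0.88 between Tbx2 and Tbx3, 0.79 between Tbx1 and Tbx2 and 0.74 between Tbx1 and Tbx3. Tbx20 ran opposite to all of them, at -0.89 with Tbx2, -0.83 with Tbx3 and -0.76 with Tbx1. Tbx18 had no r beyond 0.22 in size with any member, and the highest for Tbx5 was 0.43, with Tbx3.
The genes whose log2 CPM was most like each member's, among tested genes averaging 1 log2 CPM or more, differed between these sets. Those nearest to Tbx2 were Mylk (r = 0.96), the myosin light chain kinase of smooth muscle, Igfbp2 (0.94), which binds insulin-like growth factors, and Thbd (0.94), thrombomodulin. Nearest to Tbx3 were Unc5c (0.93), a netrin receptor, S1pr3 (0.92), a sphingosine phosphate receptor, and Arap1 (0.92). Nearest to Tbx1 were Col11a1 (0.91), a cartilage collagen, Gcat (0.90) and Sned1 (0.90). Nearest to Tbx20 were Slc8a1 (0.95), the cardiac sodium-calcium exchanger, Akap6 (0.93), an anchoring protein of muscle, and Pdlim5 (0.93), a Z-disc protein. Tbx5 was most like Zc3h13 (0.86), Arhgef17 (0.81) and Tnfrsf21 (0.81), and Tbx18 most like Mtrf1 (0.89), Gpank1 (0.82) and Lrsam1 (0.80). For these genes of Tbx18 Spearman's rho was lower, at 0.76, 0.61 and 0.63. The wild-type replicate 7, low in Tbx18, was among the libraries used.

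Of the 11 other T-box genes of the family list, 3 passed the filter (Tbx4, Tbx6 and Mga) and 0 were called by edgeR in any comparison. At an unadjusted p under 0.05 there was 1 of 3 in each, against 10.8%, 17.2% and 15.3% of all genes. That gene was Tbx4 in both comparisons with wild type and Mga between the mutant groups (log2 fold change 0.30). Tbx4, the limb and lung gene beside Tbx2, followed the pattern of Tbx2 more steeply. It ran from 0 to 9.75 CPM in wild-type libraries, from 0 to 49.3 in haploinsufficient libraries and from 0.867 to 27.3 in triple-knockout libraries, with medians of 0.696, 4.56 and 2.42. The highest haploinsufficient library for Tbx4 was replicate 7, which was also the highest of the 23 for Tbx2, Tbx3 and Tbx1 and the lowest for Tbx20. Its log2 fold change was 3.01 (interval 1.06 to 4.96, edgeR adjusted p = 0.0944) in the haploinsufficient group and 2.08 (interval 0.13 to 4.02, edgeR adjusted p = 0.404) in the triple knockout. Tbx4 was called in the haploinsufficient group when no filter was applied (edgeR adjusted p = 0.0314), without haploinsufficient replicate 3 (3.26) or without wild-type replicate 4 (3.87). With the score as a term it stood at -0.58 and -0.48. Mga, a large T-box protein that binds MAX, was at 118 ± 11.8 CPM (SD, n = 8) in wild-type, 109 ± 20.4 (n = 8) in haploinsufficient and 133 ± 17.0 (n = 7) in triple-knockout libraries. Tbx6 was near the limit of detection, at 2.48 ± 1.43 CPM (SD, n = 8) in wild-type libraries.

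Partners of the T-box factors were not called, except the gene the Cre driver sits in. Apart from Nkx2-5, that gene, 0 of 19 were called by edgeR in each comparison. At an unadjusted p under 0.05 the counts were 2, 1 and 0, against 10.8%, 17.2% and 15.3% of all genes. The median log2 fold change of the 19 was -0.03 in the triple knockout and -0.08 in the haploinsufficient group, against 0.01 over all genes in both. Nkx2-5, summed over its exons, fell by 0.98 in the triple knockout (edgeR adjusted p = 0.000283) and stood at -0.50 in the haploinsufficient group (edgeR adjusted p = 0.0666). Its mean was 98.3 CPM in wild-type, 70.2 in haploinsufficient and 49.7 in triple-knockout libraries. Between the mutant groups, which both carry the driver, Nkx2-5 stood at -0.48. The cause of these differences was not tested. The partners with the smallest p against wild type were Pdlim7 (-0.23), Sall4 (-0.70) and Gata6 (-0.15) in the triple knockout and Casz1 (-0.47), Gata6 (-0.17) and Wwtr1 (-0.12) in the haploinsufficient group (edgeR adjusted p from 0.205 to 0.592).

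Chamber genes, many of them activated by Tbx5 and Tbx20 and repressed by Tbx2 and Tbx3, held 3 of the 4 calls made in the lists of the pathway. In the triple knockout 1 of 14 was lower (0.703% of all genes were), and in the haploinsufficient group 2 of 14 were (1.38% of all genes). Nppb, the B-type natriuretic peptide of growing chamber muscle, lay between 93.9 and 152 CPM in wild-type, between 45.7 and 93.4 in haploinsufficient and between 47.6 and 103 in triple-knockout libraries. All 8 haploinsufficient and 6 of 7 triple-knockout libraries lay below every wild-type library, by a narrow margin at 93.4 against 93.9 CPM. How many of all genes part in this way was not counted. Nppb fell by 0.79 on the log2 scale in the triple knockout and by 0.75 in the haploinsufficient group (edgeR adjusted p = 0.00388 and 0.00479). When the 9 libraries scoring above 1.5 were left out the triple-knockout value was -0.36 (edgeR adjusted p = 0.517), and it was not called in the second ID set alone (-0.45, edgeR adjusted p = 0.450) either. The haploinsufficient value was not called in the first ID set alone (-0.74, edgeR adjusted p = 0.0812).
Bmp10, a growth signal of trabecular muscle, fell by 0.71 in the haploinsufficient group (edgeR adjusted p = 0.0253), from 72.3 ± 16.8 CPM (SD, n = 8) to 44.2 ± 12.7 (n = 8). The call was lost with the score as a term (-0.41, edgeR adjusted p = 0.205), without the 9 libraries (-0.46), in either ID set alone, and without any 1 of wild-type replicates 1, 2 and 8 or haploinsufficient replicates 1, 7 and 8. Nppa, the A-type natriuretic peptide and a classical T-box target, stood at 1607 ± 324, 1206 ± 177 and 1347 ± 386 CPM (SD, n = 8, 8 and 7) in the wild-type, the haploinsufficient and the triple-knockout group, and did not pass (log2 fold changes of -0.41 and -0.25, edgeR adjusted p = 0.144 and 0.605). Smpx (-0.54) and Myh6 (0.39) did not pass in the triple knockout (edgeR adjusted p = 0.115 and 0.404). Smpx was called there in DESeq2 (-0.53, DESeq2 adjusted p = 0.0438), with the replicate block (-0.61), with only the groups compared (-0.57) and in the first ID set alone (-0.87). It was also called without triple-knockout replicate 4 (-0.62) or haploinsufficient replicate 7 (-0.54), and not in the other alternatives. Myh6 was called without the 9 libraries alone (0.72, edgeR adjusted p = 0.0298).

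The promoter of Nppa is shown because it was the only 1 of the 62 listed genes in the RefSeq promoter table (GRCm38.p6, 250 bases before to 50 after the start) that held the 8-letter T-box element AGGTGTGA on either strand. Of all 32851 windows, 1.28% held it. The first 100 bases of the window (plus strand, chr4:148000472-148000571) carry the element as its reverse complement TCACACCT, in capitals, starting 250 bases before the RefSeq start.
Nppa: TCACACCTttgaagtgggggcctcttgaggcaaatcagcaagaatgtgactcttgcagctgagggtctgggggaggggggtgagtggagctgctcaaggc
The shorter core AGGTGT, which lies within the longer element, was in 13.7% of all windows and in 8 of the 62 listed genes: Aldh1a2, Hcn4, Mef2c, Nppa, Sema3d, T, Tbx1 and Twist1. Of the members, 3 have a window in the table (Tbx1, Tbx18 and Tbx20). A match is a description of the letters and not evidence of binding.

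Genes of the canal and conduction system, where Tbx2 and Tbx3 act, gave 0 of 13 calls by edgeR in each comparison. At an unadjusted p under 0.05 there were 3, 1 and 3 of 13, against 10.8%, 17.2% and 15.3% of all genes. Their median log2 fold change was -0.11 in the triple knockout and -0.10 in the haploinsufficient group. Those with the smallest p were Id2 (-0.33), an inhibitor of helix-loop-helix factors, Rspo3 (-0.50), a Wnt agonist, and Mycn (-0.29) in the triple knockout, and Cacna1g (-0.44), a T-type calcium channel of the conduction system, Rspo3 (-0.37) and Bmp2 (-0.28), the canal signal upstream of Tbx2, in the haploinsufficient group (edgeR adjusted p from 0.168 to 0.407). Cacna1g was called in the haploinsufficient group with the score as a term (-0.93, edgeR adjusted p = 0.000782) and without the 9 libraries (-0.64, edgeR adjusted p = 0.0116).
Of the outflow and pharyngeal genes, where Tbx1 acts, 1 of 11 was lower in the triple knockout, where 0.703% of all genes were, and 0 were called in the other comparisons. At an unadjusted p under 0.05 the list held 5, 3 and 1 of 11 in the triple knockout, the haploinsufficient group and between them. The shares of all genes were 10.8%, 17.2% and 15.3%. Foxc1, a forkhead factor of the second heart field and cushions, fell by 0.59 (edgeR adjusted p = 0.0278), from 28.9 ± 4.77 CPM (SD, n = 8) to 18.96 ± 6.47 (n = 7). Below every wild-type library lay 6 of 7 triple-knockout libraries, with triple-knockout replicate 1 at 33.0 CPM. How many of all genes part in this way was not counted. Foxc1 was not called in limma on log2(FPKM + 0.1) (-0.58, limma adjusted p = 0.0652), in the ID sets alone (-0.52 and -0.66, edgeR adjusted p = 0.404 and 0.0690) or without the 9 libraries of a score above 1.5 (-0.66, edgeR adjusted p = 0.0705). Nor was it without any 1 of wild-type replicates 2, 3, 5 and 6 or triple-knockout replicates 2, 3, 4 and 7, where the value ran from -0.59 to -0.50. Wnt5a (-0.31), Isl1 (0.94) and Bmp4 (0.23) came next in the triple knockout (edgeR adjusted p from 0.232 to 0.349), and Wnt5a (-0.34), Bmp4 (0.29) and Fgf10 (1.49) in the haploinsufficient group (edgeR adjusted p from 0.112 to 0.252).
The epicardial and sinus horn genes, the compartment of Tbx18, gave 0 of 12 calls by edgeR in each comparison. At an unadjusted p under 0.05 they gave 1, 0 and 0 of 12, against 10.8%, 17.2% and 15.3% of all genes. Their median log2 fold change was 0.01 in the triple knockout and 0.00 in the haploinsufficient group. Krt19 (-0.36), Bnc2 (1.07) and Bnc1 (-0.20) had the smallest p in the triple knockout, and Lrrn4 (0.25), Upk1b (0.25) and Krt19 (-0.16) in the haploinsufficient group (edgeR adjusted p from 0.156 to 0.660).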

How the data were processed

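RNA-seq of 23 heart libraries was used. Per the labels' protocols, RNA was depleted of ribosomal RNA and sequenced from non-strand-specific single-end libraries. The deposited gene counts carry the counter HTSeq in their name, and the authors' FPKM values were deposited beside them. The submitters' processing notes name mm10, TopHat2 (2.0.10), Bowtie2, HTSeq and Cufflinks (2.1), with no further settings. Gene positions come from the other deposited file, the authors' annotation.

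Counts were tested with edgeR (version 4.0.16, R 4.3.3) by a quasi-likelihood fit over the 23 libraries with group and ID set terms, TMM scaling, and the expression filter (minimum count 10, minimum total 15); p-values are two-sided and adjusted by Benjamini-Hochberg over all genes, threshold 0.05. Targeted genes and Cre are left out of counts of calls. DESeq2 (1.42.0), limma (3.58.1) on log2 FPKM with a pseudocount of 0.1 or 1, other scaling and filters, a sex term, the replicate block, single ID sets, the score, and leaving out libraries were alternatives. Replicate numbers were not taken to pair samples: same-numbered libraries deviated together (correlation over 0.1) in 1 of 7, 1 of 8 and 3 of 7 pairs. Libraries of a group differed by more than sampling noise (chi-square per degree of freedom of 5.20 or more), so none was counted as a copy. The exact test of Tbx1 and the score coefficient were added after the data were seen. Score relations used 100000 permutations in Python (3.11.15). The fit was run on simulated data in which every gene had a biological coefficient of variation of 20.8%. Tbx2 (63.9%) and Tbx3 (32.5%) spread more widely, so that run does not show how well such genes are called.

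The members, the gene lists and the adjacent tissue score were chosen with earlier results of these data known. Named genes are the members, the other T-box genes that passed the filter, called members of each list with up to 3 more of the smallest p against wild type, the 3 genes most like each member (r of log2 CPM, prior count 1, group and ID set means removed), and the targeted genes. A gene and a sequence that these rules would name are not reported here.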

Additional observations from a re-analysis of the deposited data

Results flagged for a closer look

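Over 21 groups of libraries (6 T-box genes and Tbx4 in 3 genotype groups), 1 value stood apart on the log2 CPM scale. In the wild-type group Tbx18 was at 35.6 CPM in replicate 7 and at 65.7 CPM in the next lowest library, a gap that took 0.674 of the range of the 8 libraries, where 0.526 is the 95% critical value of Dixon's test. Chance alone flags about 1 group in 20. No test of a difference in a fold change of a member between ID sets, or between libraries split by Xist and Y-linked genes, passed the threshold (lowest edgeR adjusted p = 0.705).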

How the results depend on the processing

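Fold changes of the 5 members tested, in 3 comparisons, were recomputed under 38 alternatives each. Of these 570 values 43 turned sign and 1 was called: with the adjacent tissue score as a term the number of members called in the triple knockout against wild type was 1 (Tbx2) in place of 0. The order of levels was the same in every alternative run on it, and the number of neighbours that differed was 3 to 4 when a library was left out. The number of members related to the score, by the permutation test of r, was 4, and 3 and 5 in the first and second ID set alone. How many of all genes pass that test was not counted, so these numbers cannot be weighed against a background. In the edgeR fit with the score as a term, a different test, 13.4% of all genes were called for the score. Low counts limit the precision for Tbx1, Tbx4 and Tbx6. The cause of the changes below was not tested.

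With the score as a term, log2 fold changes of the other sign in the triple knockout against wild type were -0.69 for Tbx2, -0.31 for Tbx3, 0.028 for Tbx18, -0.48 for Tbx4, -0.0035 for Tbx6 and -0.14 for Bnc2. In the haploinsufficient group against wild type they were -0.59 for Tbx2, -0.26 for Tbx3, 0.21 for Tbx20, 0.017 for Tbx18, -0.58 for Tbx4, 0.026 for Smpx, 0.031 for Ryr2 and -0.47 for Fgf10. Between the mutant groups Tbx4 was at 0.10.
Without the libraries of a score above 1.5, they were -0.17 for Tbx2, -0.44 for Tbx3, -0.50 for Tbx6 and -0.62 for Bnc2 in the triple knockout. In the haploinsufficient group they were -0.37 for Tbx2, -0.031 for Tbx3, 0.14 for Tbx20, 0.030 for Tbx18, -0.92 for Tbx4, 0.074 for Ryr2 and -1.76 for Fgf10. Between the mutant groups they were 0.20 for Tbx2, -0.089 for Tbx18 and 2.19 for Tbx4.

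In limma on log2(FPKM + 0.1), with or without the filter, the triple knockout stood at -0.055 for Tbx20 and 0.050 for Tbx18 against wild type and at 0.26 for Tbx4 against the haploinsufficient group. On log2(FPKM + 1) Tbx20 was at -0.055 and Tbx18 at 0.044. In the first ID set alone Tbx18 was at 0.043 in the triple knockout, Tbx5 at -0.0033 and Tbx20 at 0.075 in the haploinsufficient group, and Tbx2 at 0.15, Tbx20 at -0.063 and Tbx3 at 0.47 between the mutant groups. In the second set Tbx6 was at -0.46 in the triple knockout, Tbx18 at 0.032 in the haploinsufficient group, and Tbx5 at -0.11 and Tbx18 at -0.12 between the mutant groups.
Leaving out 1 library at a time gave Tbx18 from -0.13 to 0.045 (triple knockout), from -0.15 to 0.023 (haploinsufficient) and from -0.036 to 0.070 (between mutants), Tbx20 from -0.024 to 0.14 and Tbx6 from -0.053 to 0.34 (triple knockout), and Tbx3 from -0.33 to 0.064 (between mutants). With the sign kept, Tbx2 ran from 0.35 to 0.90 (triple knockout), from 0.89 to 1.59 (haploinsufficient) and from -1.12 to -0.15 (between mutants), and Tbx3 from 0.16 to 0.43 (triple knockout) and from 0.24 to 0.57 (haploinsufficient). Tbx4 ran from 1.22 to 2.98, from 2.36 to 3.87 and from -1.997 to -0.21 in the same 3 comparisons, and Tbx5 from 0.10 to 0.22, from 0.037 to 0.17 and from 0.00081 to 0.14. Tbx20 ran from -0.17 to -0.00091 (haploinsufficient) and from 0.047 to 0.24 (between mutants).

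With the replicate number as a block, 0 members were called in each comparison, Tbx20 stood at -0.030 and Tbx18 at 0.0064 in the triple knockout, and the number of genes called was 147, 222 and 16 in place of 166, 312 and 55.
Counts over all genes that moved by more than 1.5 times were, for the triple knockout against wild type, 292 (DESeq2), 88 (limma without the filter), 297 (only the groups compared), 50 and 51 (the ID sets alone) and 106 (without the high scores). For the haploinsufficient group they were 561 (DESeq2), 20 and 179 (the ID sets), 190 (the score term), 125 (without the high scores) and 159 to 615 with 1 library left out. Between the mutant groups they were 269 (DESeq2), 88 (no filter), 0 (limma), 1 (only the groups compared), 176 and 1 (the ID sets), 153 (the score term), 0 (without the high scores) and 10 to 416 with 1 library left out.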
